A study of Anas platyrhynchos with 18 samples.

Results

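The miR-17 to miR-92 cluster is a group of microRNAs (miRNAs) that are cut from a single primary transcript. Its members were chosen here by name, as every entry called miR-17, miR-18a, miR-19a, miR-19b, miR-20a or miR-92. Of the 801 mature miRNA names in the files, 12 matched, and 11 of these were among the 353 names with a count above 0 in any library. The strands followed in detail are the 7 main or best known ones, miR-17-5p, miR-18a-5p, miR-19a-3p, miR-19b-3p, miR-20a-5p, miR-92-3p and miR-92-5p. The other strands with counts, miR-17-3p, miR-18a-3p, miR-19a-5p and miR-19b-5p, were used mainly to compare the arms of a hairpin. miR-20a-3p had a count of 0 in all 17 libraries, which allows up to 0.0208 CPM, that is counts per 1000000 miRNA counts of a library, over the 144194052 counts together.

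Small RNAs were sequenced from Pekin duck skin taken above the thoracic vertebrae, where feather follicles form, at 6 stages. The stages were embryonic days 11, 15 and 20, written 11EM, 15EM and 20EM, the first day after hatch (1DB), and 4 and 10 weeks of age (4WK and 10WK). The labels name no treatment, and each stage had 3 libraries except 20EM, where 2 were used, so that 8 libraries came from before and 9 from after hatch. The labels do not name the animals behind the libraries, so the p-values measure only the spread between these samples. In whole skin, fewer cells of a type and less RNA per cell cannot be told apart, and hatch cannot be told apart from age.

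In birds and mammals, the transcript is folded into several hairpins, and each hairpin yields a strand from its 5p arm and one from its 3p arm, of which the cell usually keeps mostly one. The bases near the 5′ end, called the seed, pair with target mRNAs, and members with the same seed share most targets. In mammals, transcription of the cluster is driven by MYC and E2F factors, and its miRNAs repress brakes on growth and survival such as BIM and p21. It is best known from dividing progenitor cells and lymphomas. Duplicated copies of the cluster exist in vertebrates, of which the miR-106 cluster, with miR-106, miR-18b and miR-20b, is present in these files.

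The mature sequences below are those of chicken miRNAs, to which the study matched its duck reads, and are shown because the members fall into families by their seed. Capitals mark the seed, bases 2 to 8 from the 5′ end.
miR-17-5p: cAAAGUGCuuacagugcagguagu
miR-20a-5p: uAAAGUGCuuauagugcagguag
miR-18a-5p: uAAGGUGCaucuagugcagaua
miR-19a-3p: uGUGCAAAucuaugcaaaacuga
miR-19b-3p: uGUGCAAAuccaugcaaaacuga
miR-92-3p: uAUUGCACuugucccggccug
miR-92-5p: aGGUUGGGaucaguugcaaugcu

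miR-17-5p and miR-20a-5p shared the seed AAAGUGC and differed by C1U and C12U, counted from the 5′ end with the base of miR-17-5p first. miR-19a-3p and miR-19b-3p shared GUGCAAA and differed by U11C alone. The seed of miR-18a-5p, AAGGUGC, the seed of miR-92-3p, AUUGCAC, and that of miR-92-5p, GGUUGGG, were found in no other strand of the cluster. Relatives outside the cluster are close to its members, as the following strands show.
miR-106-5p: aAAAGUGCuuacagugcaggua
miR-20b-5p: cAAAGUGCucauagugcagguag
miR-18b-5p: uAAGGUGCaucuagugcaguua
miR-32-5p: uAUUGCACauuacuaaguugc

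Over the bases compared, miR-17-5p differed from miR-106-5p by C1A and from miR-20b-5p by U10C and C12U, and miR-18a-5p differed from miR-18b-5p by A20U. How the reads of such near-identical strands were divided is not given in the sources used here, so the split within each pair is uncertain. miR-32-5p, from another hairpin, shared only the seed with miR-92-3p.

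The libraries held 3072942 to 15839714 miRNA counts, with a median of 7606084. The miRNA counts made up 24.8 to 64.5% of the clean reads before hatch and 11.5 to 32.5% after hatch, so levels per miRNA count and per clean read can differ. 20EM replicate 3 stood apart, with 24.8% against 60.3% in 20EM replicate 1, and results between 20EM and its neighbours are also given without it. The median miRNA changed by −0.16 (log2) from before to after hatch with TMM scaling, by −0.37 with library totals and by −1.78 per clean read, and 58.3, 64.3 and 90.9% of the called miRNAs were lower. Marker miRNAs of other cells also moved. The summed level of 3 red blood cell markers was 2135 to 4899 CPM before and 11522 to 25468 CPM after hatch, that of 4 leukocyte markers 448 to 742 and 1014 to 9308 CPM, and that of 3 mesenchyme markers 20754 to 45312 and 12628 to 22887 CPM. The leukocyte marker miR-155 was at 0 in every 11EM, 20EM and 1DB library. Summed epithelial markers, 6 of 6 of them present, ranged from 21955 to 118963 CPM before and from 36358 to 87433 CPM after hatch. The part of these shifts in the results that follow was not tested.

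Counted together, the cluster took a smaller mean share of all miRNA counts at each later stage. Before hatch, the 12 names held 8.41% ± 2.69 of the counts at 11EM, 6.22% ± 0.818 at 15EM and 3.80% ± 0.108 at 20EM (SD, n = 3, 3 and 2). The 1DB libraries gave 3.26% ± 0.127, those of 4WK 2.52% ± 0.470 and those of 10WK 2.24% ± 0.245 (n = 3 each). The 20EM libraries stood at 3.87% in replicate 1 and 3.72% in replicate 3. Every library before hatch, at 3.72 to 11.4%, was above every library after hatch, at 1.97 to 3.37%. The ratio of the means was 2.41, and 6.34 per clean read. Most of the sum was miR-92-3p, which made up 85.5 to 96.1% of it. The remaining names gave 0.489% ± 0.0440 before (n = 8) and 0.242% ± 0.0324 after hatch (n = 9), a ratio of 2.02. Their stage means did not fall at each step. They were 0.448, 0.530 and 0.491% at 11EM, 15EM and 20EM, and 0.235, 0.277 and 0.216% at 1DB, 4WK and 10WK.

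The members spanned a wide range of abundance. By mean CPM over the libraries, miR-92-3p ranked 8 of 353, miR-19b-3p 56, miR-17-5p 65, miR-20a-5p 77, miR-19a-3p 90, miR-18a-5p 102 and miR-92-5p 130. Their counts per library ran from 23 to 1728303, and the 95% Wilson interval reached from the level by 0.141 to 0.822% of the level for miR-92-3p, to at most 15.7% for the other main strands and to 3.93 to 41.7% for miR-92-5p. These intervals cover counting error only.

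miR-17-5p, which gave the cluster its name and in mammals represses cell-cycle inhibitors, was highest in the first embryonic stages. It stood at 1326, 1516 and 1555 CPM at 11EM, at 1725, 1665 and 1573 CPM at 15EM, and at 1135 and 989.7 CPM in 20EM replicates 1 and 3. After hatch it read 681, 682 and 623 CPM at 1DB, 567, 685 and 635 CPM at 4WK, and 458, 553 and 459 CPM at 10WK. The stages ranked 15EM, 11EM, 20EM, 1DB, 4WK and 10WK, and of these neighbours only 1DB and 4WK overlapped. The lowest library before hatch was above the highest after it. miR-20a-5p, with the same seed, stood at 723, 764 and 891 CPM at 11EM, at 1009.5, 977 and 803 CPM at 15EM, and at 710.3 and 633 CPM at 20EM. It read 439, 427 and 393 CPM at 1DB, 411, 480.5 and 446 CPM at 4WK, and 348, 389.6 and 329 CPM at 10WK. Its order was the same but for 4WK above 1DB, with overlap between 15EM and 11EM and between 4WK and 1DB.

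miR-18a-5p differs from the miR-17 family by a base in the seed and is counted as a family of its own. It read 333, 347 and 406 CPM at 11EM, 365, 406 and 311 CPM at 15EM, and 185 and 197 CPM at 20EM. At 1DB it stood at 70.7, 71.9 and 76.9 CPM, at 4WK at 107, 98.7 and 103 CPM, and at 10WK at 58.9, 74.2 and 50.8 CPM. Its 11EM and 15EM libraries overlapped, 20EM lay below both, and the 4WK libraries were above all those of 1DB and 10WK, which overlapped.

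The pair with the seed GUGCAAA followed another course. In mice, miR-19a and miR-19b are the members that drive lymphoma most strongly. miR-19a-3p stood at 339, 283 and 339.6 CPM at 11EM, at 512, 358 and 460.5 CPM at 15EM, and at 692 and 569 CPM at 20EM. It then stood at 211, 148 and 173 CPM at 1DB, at 244, 307 and 278 CPM at 4WK, and at 232, 238 and 185 CPM at 10WK. Both 20EM libraries were above all others. miR-19b-3p read 1356, 1331 and 1335 CPM at 11EM, 1796, 1392 and 1738 CPM at 15EM, and 2215 and 2277 CPM at 20EM. After hatch it read 1041, 959 and 886 CPM at 1DB, 1115, 1340.4 and 1345 CPM at 4WK, and 927, 1074 and 935 CPM at 10WK. Both members ranked 20EM, 15EM, 11EM, 4WK, 10WK and 1DB, with overlap between 11EM and 4WK and between 10WK and 1DB. For these strands, the ranges before and after hatch overlapped.

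miR-92-3p, which in mammals acts on vessel growth and on integrins, was by far the most abundant member. It stood at 73857, 109112 and 55996 CPM at 11EM, at 49612, 55060.1 and 66060.5 CPM at 15EM, and at 33676 and 32446 CPM at 20EM. After hatch it stood at 30245, 31377 and 28993 CPM at 1DB, at 25355, 24930.3 and 16879.7 CPM at 4WK, and at 19870.2, 22632 and 18181 CPM at 10WK. Each stage mean was below the one before it, while 11EM overlapped 15EM and 4WK overlapped 10WK. miR-92-5p, the minor strand of the same hairpin, read 112, 138 and 112 CPM at 11EM, 158, 169.8 and 197 CPM at 15EM, and 63.3 and 49.0 CPM at 20EM. It then read 16.5, 18.7 and 12.1 CPM at 1DB, 18.6, 18.4 and 12.2 CPM at 4WK, and 18.3, 16.99 and 7.48 CPM at 10WK. It was highest at 15EM, and the stages after hatch overlapped each other.

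**Figure D1:**
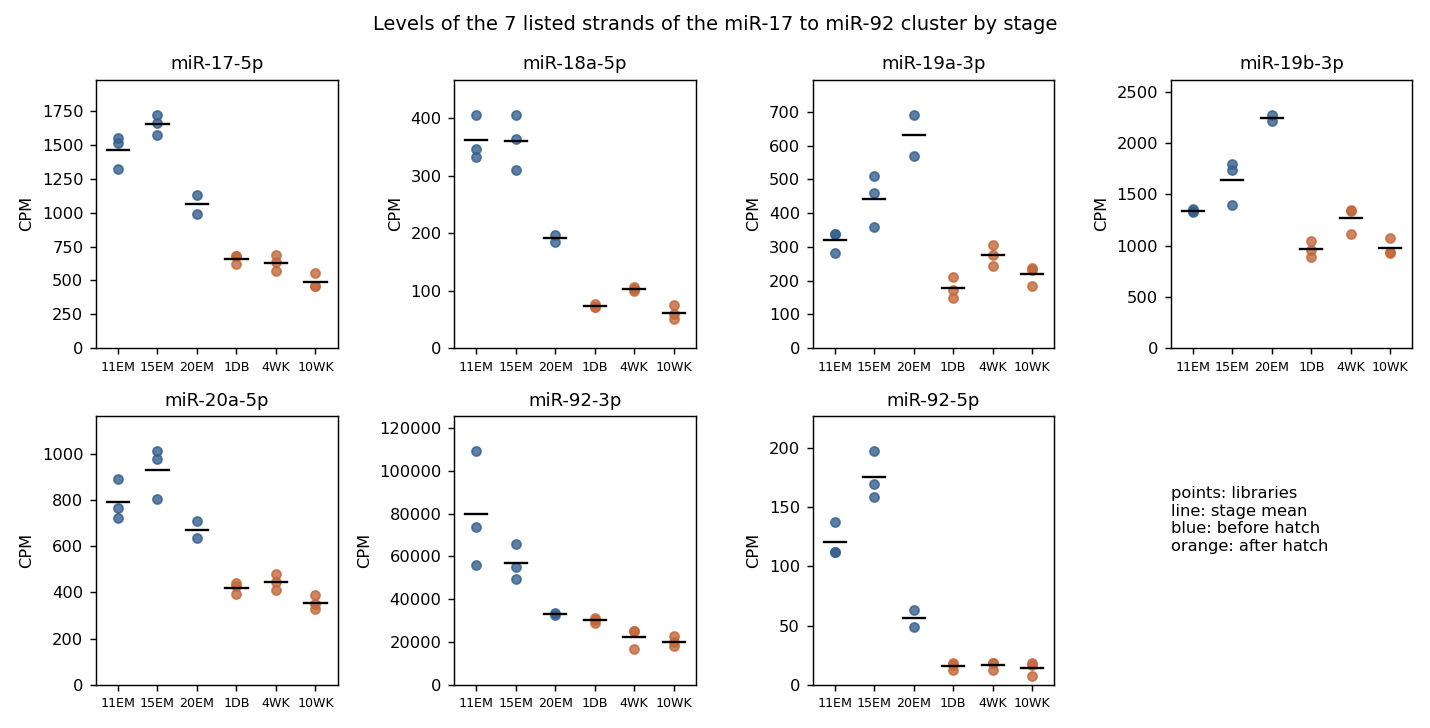
Level of the 7 main strands in each library (CPM) by stage, with blue points before hatch, orange points after hatch and black lines for stage means. In CPM, miR-19a-3p and miR-19b-3p peak at 20EM, with means of 631 and 2246, though per clean read miR-19b-3p does not. miR-17-5p, miR-20a-5p and miR-92-5p peak at 15EM, with means of 1654, 929.8 and 175 CPM.

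With both strands of miR-92 left out, the make-up of the cluster shifted between strands. Of the summed counts of miR-17-5p, miR-18a-5p, miR-19a-3p, miR-19b-3p and miR-20a-5p, miR-17-5p held 34.2% at 11EM, 32.9% at 15EM and 22.1% at 20EM. miR-19b-3p held 31.4, 32.6 and 46.8% at the same stages and miR-19a-3p held 7.50, 8.79 and 13.1%. In 20EM replicate 1 alone, the shares were 23.0% for miR-17-5p, 44.9% for miR-19b-3p and 14.0% for miR-19a-3p. Thus, in the stage means, miR-19b-3p passed miR-17-5p as the largest of the 5 at 20EM, and at 10WK they held 46.6 and 23.3%. By library, miR-19b-3p was already above miR-17-5p in 11EM replicate 1 and in 15EM replicates 1 and 3. It was below miR-17-5p in 11EM replicates 2 and 3 and in 15EM replicate 2. miR-18a-5p went from 8.44% at 11EM to 2.90% at 10WK, and miR-20a-5p stayed between 14.0 and 18.5% in the stage means.

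**Figure D2:**
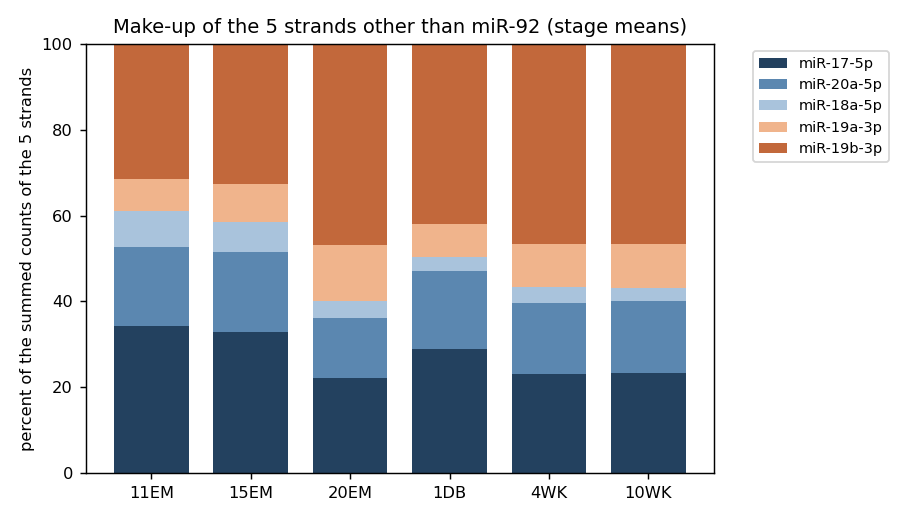
Share of each of 5 strands in their summed counts (percent), by stage, with miR-92-3p and miR-92-5p left out. The share of miR-19b-3p is 31.4% at 11EM and 46.8% at 20EM, while that of miR-17-5p is 34.2 and 22.1%.

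From before to after hatch, every strand followed in detail was lower. The test was edgeR's quasi-likelihood test on all libraries with Benjamini-Hochberg adjustment over 252 miRNAs, and a miRNA was called at an adjusted p under 0.05 with a fold change of at least 2. All 7 had an adjusted p below 0.05, a count without a share over all miRNAs here. With the fold threshold, 3 of 7 were called, against 50.4% of all miRNAs called and 29.4% called as lower. miR-18a-5p fell by 1.72 (log2, SE 0.10, adjusted p = 6.11e-10, edgeR), miR-17-5p fell by 1.02 (SE 0.07, adjusted p = 5.09e-09) and miR-92-5p fell by 2.58 (SE 0.17, adjusted p = 2.56e-09). The other 4 changed by less than 2-fold. miR-92-3p fell by 0.96 (SE 0.14, adjusted p = 1.66e-05, edgeR), miR-19a-3p fell by 0.82 (SE 0.10, adjusted p = 3.00e-06), miR-20a-5p fell by 0.77 (SE 0.07, adjusted p = 1.68e-07) and miR-19b-3p fell by 0.49 (SE 0.07, adjusted p = 2.65e-05). The median over the 7 was −0.96, beside −0.16 over all 252 miRNAs. The level ranges before and after hatch did not overlap for 5 of 7 strands, beside 30.6% of all miRNAs.

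The call of miR-17-5p lay at the edge of the fold threshold. It came to −0.91 with DESeq2, which called 2 members, and to −0.89 to −0.99 in 6 fits that each left out a library, namely any of the 11EM libraries, 1DB replicate 3, 4WK replicate 2 or 4WK replicate 3. Without 15EM replicate 1, miR-92-3p reached −1.01. Among the 12 libraries with the lower share of reads kept after cleaning, 4 members were called, and all 7 kept an adjusted p below 0.05 in edgeR. These 12 libraries were 4 from before and 8 from after hatch, with only replicate 3 of 15EM and only replicate 1 of 20EM. The share of all miRNAs called in these libraries, or by DESeq2, is not given here. Of the other strands, 3 of 4 were called as lower, beside 29.4% of all miRNAs, namely miR-18a-3p, miR-19a-5p and miR-19b-5p. Their stage means were low, from 4.24 to 22.9 CPM for miR-18a-3p, from 0.844 to 9.16 CPM for miR-19a-5p and from 0.499 to 2.13 CPM for miR-19b-5p. miR-17-3p, which was not called, had stage means of 25.2 to 62.1 CPM. Of the 12 names, 11 passed the filter on low counts and miR-20a-3p did not.

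**Figure D3:**
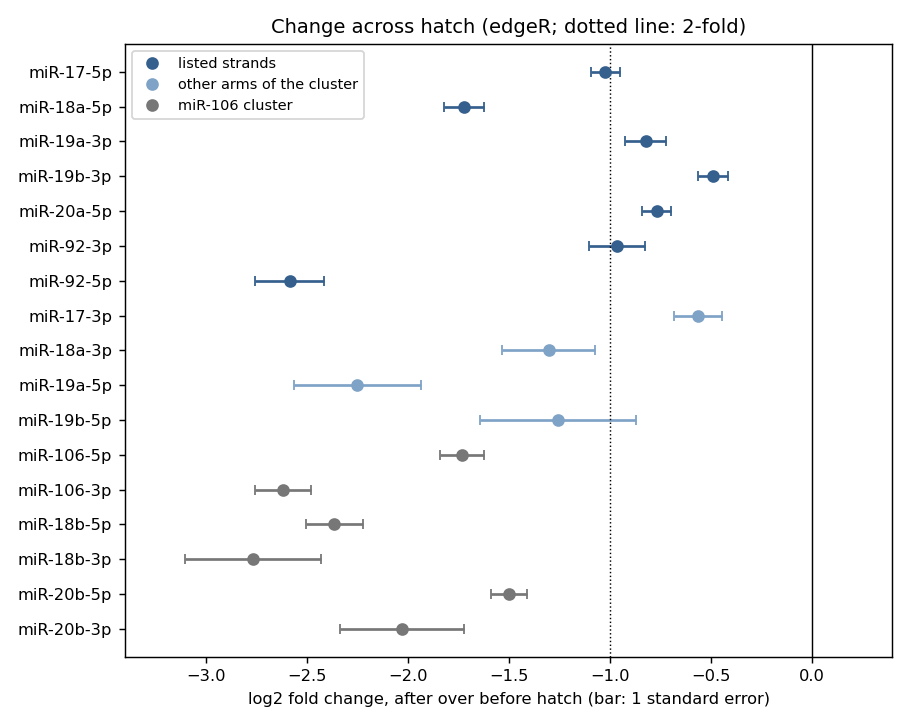
Log2 fold change from before to after hatch in edgeR, with standard errors, for the members of the cluster and of the miR-106 cluster. All main strands lie below 0, from −0.49 for miR-19b-3p to −2.58 for miR-92-5p.

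The change was not spread evenly over the stages. No member was called between 11EM and 15EM, against 28.6% of all miRNAs, by edgeR, DESeq2 or limma, and 2 had an unadjusted p below 0.05. These were miR-19a-3p, at +0.38, and miR-92-3p, at −0.57, and the value for miR-92-3p was −0.06 without 11EM replicate 2.

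From 15EM to 20EM, the members moved in opposite directions. Of the 7, 1 was called, against 13.9% of all miRNAs called and 9.92% called as lower. All 7 had an adjusted p below 0.05, a count without a share over all miRNAs here. miR-92-5p fell by 1.63 (log2, SE 0.32, adjusted p = 0.00288, edgeR), miR-18a-5p fell by 0.88 (SE 0.19, adjusted p = 0.00449), miR-17-5p fell by 0.61 (SE 0.14, adjusted p = 0.00578), miR-20a-5p fell by 0.44 (SE 0.14, adjusted p = 0.0304) and miR-92-3p fell by 0.77 (SE 0.27, adjusted p = 0.0486). miR-19a-3p rose by 0.54 (SE 0.19, adjusted p = 0.0490, edgeR), which was 0.061 per clean read (adjusted p = 0.912). miR-19b-3p rose by 0.48 (SE 0.14, adjusted p = 0.0233, edgeR), though per clean read it came to −0.062. With either 20EM library left out, 1 remained there, and most members lost the adjusted p below 0.05 (edgeR). Without 20EM replicate 3, miR-92-5p was at −1.51, miR-18a-5p at −0.99, miR-17-5p at −0.57, miR-20a-5p at −0.41 and miR-92-3p at −0.80. In that fit, miR-19a-3p was at +0.62 and miR-19b-3p at +0.40. Without 20EM replicate 1, miR-92-5p was at −1.76, miR-18a-5p at −0.78, miR-17-5p at −0.66, miR-20a-5p at −0.47 and miR-92-3p at −0.74. There, miR-19a-3p was at +0.45 and miR-19b-3p at +0.56.

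From 20EM to 1DB, 3 of 7 members were called, against 28.6% of all miRNAs called and 17.1% called as lower. With an adjusted p below 0.05, 6 of 7 fell, a count without a share over all miRNAs here. miR-19a-3p fell by 1.58 (log2, SE 0.19, adjusted p = 3.00e-05, edgeR), miR-92-5p fell by 1.59 (SE 0.30, adjusted p = 0.000964) and miR-18a-5p fell by 1.14 (SE 0.18, adjusted p = 0.000191). miR-19b-3p fell by 0.98 (SE 0.14, adjusted p = 7.40e-05, edgeR), just short of the fold threshold. miR-17-5p fell by 0.44 and miR-20a-5p fell by 0.43 (adjusted p = 0.0169 and 0.0184, edgeR). Without 20EM replicate 1 these were −0.39 and −0.41, and without 20EM replicate 3 they were −0.48 and −0.46. Either fit left 1 library at 20EM, so these values cannot decide whether the adjusted p below 0.05 holds. miR-92-3p was at +0.11 (adjusted p = 0.757, edgeR), a sign that turned to −0.13 with library totals and to −0.79 per clean read. Without 20EM replicate 3, miR-19a-3p was at −1.66, miR-92-5p at −1.71 and miR-18a-5p at −1.03. Without 20EM replicate 1 they were at −1.49, −1.46 and −1.24.

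After hatch, no change of a member was called from stage to stage. No member was called between 1DB and 4WK, against 22.2% of all miRNAs, by edgeR, DESeq2 or limma, and 4 had an unadjusted p below 0.05. Of these, miR-19a-3p was at +0.51 (adjusted p = 0.0283, edgeR), miR-18a-5p at +0.37, miR-19b-3p at +0.28 and miR-92-3p at −0.55, and per clean read the first 3 turned to −0.23, −0.38 and −0.48. No member was called between 4WK and 10WK either, against 1.19%, with any of the 3 tools, and miR-18a-5p alone, at −0.62, had an unadjusted p below 0.05. Over the whole course, from 11EM to 10WK, 4 of 7 were called, against 58.7% of all miRNAs and 34.9% as lower. miR-92-5p fell by 2.89, miR-18a-5p fell by 2.37, miR-92-3p fell by 1.80 and miR-17-5p fell by 1.39. miR-19a-3p, at −0.36 (adjusted p = 0.0738, edgeR), and miR-19b-3p, at −0.26 (adjusted p = 0.0788), did not pass the test. In the test for any difference among the 6 stages, all 7 had an adjusted p below 0.05 (edgeR), as did 84.9% of all miRNAs.

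A ratio between members of a library does not depend on the scaling of that library, and it shows where their mature levels parted. Members were chosen by name, and whether all their reads came from a single transcript was not tested. Each member was therefore set against miR-17-5p. In 4 of 6 members the log2 ratio differed between the 8 libraries before and the 9 after hatch. Of all miRNAs, 74.2% differed, 20.1% as lower and 54.1% as higher. The test was an exact permutation test, two-sided, adjusted over 229 miRNAs. It shuffled the libraries without regard to stage, so its p-values take no account of a spread between stages. The ratio of miR-92-5p changed by −1.66 (adjusted p = 0.000124, exact permutation) with no overlap, as in 38.9% of all miRNAs, and that of miR-18a-5p by −0.73 (adjusted p = 0.000462). It was higher by 0.63 for miR-19b-3p (adjusted p = 0.0146, exact permutation) and by 0.27 for miR-20a-5p (adjusted p = 0.000611). For miR-19a-3p the difference was 0.31 (adjusted p = 0.285, exact permutation) and for miR-92-3p it was 0.04 (adjusted p = 0.832), the latter −0.24 in the 12 libraries with the lower share of reads kept.

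The ratios of the miR-19 pair to miR-17-5p rose towards 20EM and fell at 1DB. The mean log2 ratio of miR-19b-3p was −0.13, −0.02 and 1.08 in the stages before hatch and 0.54, 1.01 and 1.00 in those after it. For miR-19a-3p it was −2.19, −1.91, −0.76, −1.91, −1.19 and −1.17 in the same order. In both, the 20EM mean was above the 15EM and the 1DB means, and the later stages lay above 11EM. By limma on all ratios, a test added after seeing the data, the step from 15EM to 20EM was 1.10 for miR-19b-3p (SE 0.15, adjusted p = 0.000243) and 1.16 for miR-19a-3p (SE 0.20, adjusted p = 0.00118). They were among 3 of 6 members called there, against 30.1% of all miRNAs and 27.5% as higher, and the steps were 0.98 (adjusted p = 0.00661, limma) and 1.20 (adjusted p = 0.0121) without 20EM replicate 3. miR-92-5p, the remaining one, was at −1.004 (adjusted p = 0.0309, limma) and at −0.92 (adjusted p = 0.168) without that library.

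From 20EM to 1DB, 4 of 6 ratios to miR-17-5p fell, against 15.3% of all miRNAs, while 52.4% changed in either direction. miR-19a-3p fell by 1.16 (adjusted p = 0.000490, limma), miR-92-5p fell by 1.16 (adjusted p = 0.00891), miR-18a-5p fell by 0.71 (adjusted p = 0.00416) and miR-19b-3p fell by 0.55 (adjusted p = 0.00863). For miR-19b-3p it was −0.43 without 20EM replicate 3 (adjusted p = 0.0920, limma), and for miR-92-5p −1.07 without 20EM replicate 1 (adjusted p = 0.0611). Between 11EM and 15EM none of the 6 ratios was called by limma, against 41.5% of all miRNAs. The nearest was miR-92-3p, at −0.62 (adjusted p = 0.0572, limma), which was called in 4 of the fits that left out a library.

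**Figure D4:**
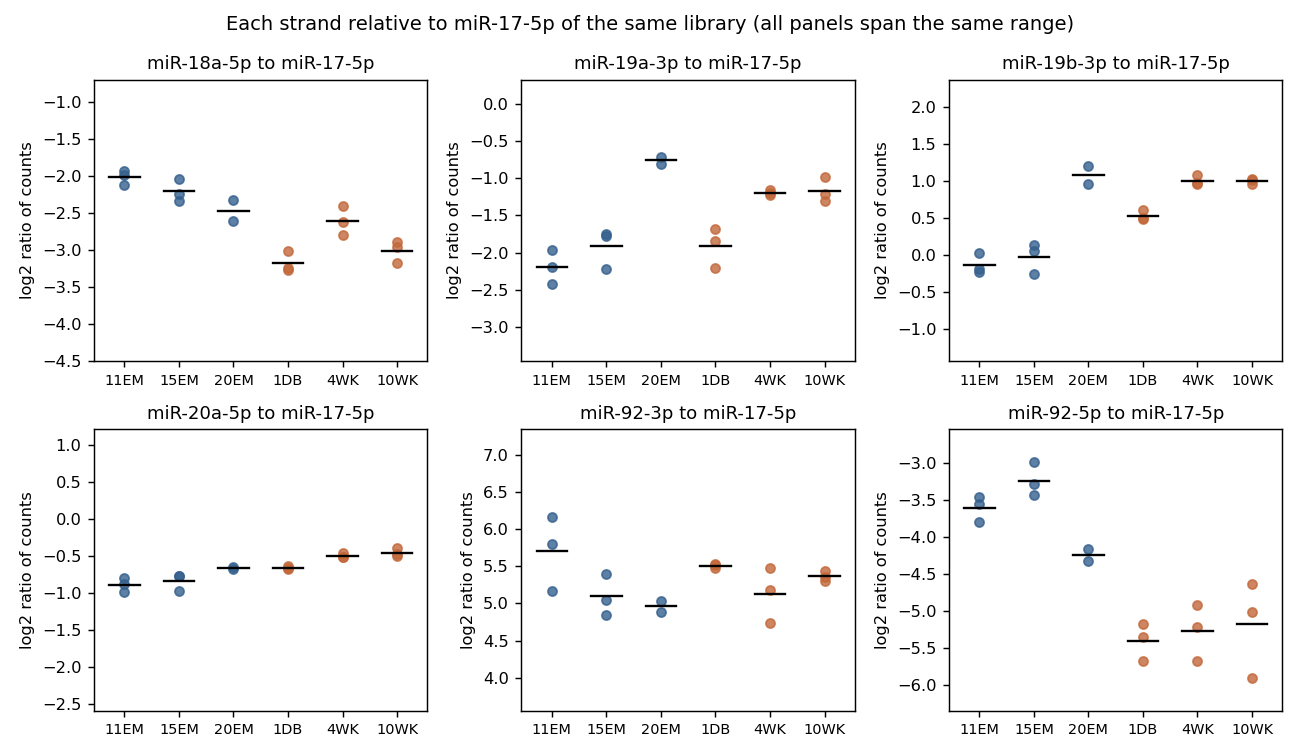
Log2 ratio of each member to miR-17-5p in the same library, by stage, with blue points before hatch, orange points after hatch and black lines for stage means. The means of miR-19b-3p go from −0.02 at 15EM to 1.08 at 20EM, while those of miR-92-5p go from −3.24 at 15EM to −5.41 at 1DB.

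The balance of the arms within a hairpin was compared in the same way, as the log2 ratio of the 5p to the 3p strand. It differed between the libraries before and after hatch in 4 of 5 hairpins of the cluster (exact permutation test, adjusted over 72 hairpins), all lower after hatch, against 66.7% of all hairpins and 31.9% as lower. For miR-92 the difference was −1.70 (adjusted p = 0.000165, exact permutation), with no overlap, as in 27.8% of all hairpins, and the unadjusted p of 4.11e-05 is the smallest that this design can give. miR-92-5p made up 0.217% ± 0.0784 of the counts of its hairpin before hatch (n = 8) and 0.0648% ± 0.0169 after hatch (n = 9). The range was 0.126 to 0.318% before and 0.0412 to 0.0922% after hatch, so the 3p strand dominated everywhere.

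The largest step between neighbouring stage means of the miR-92 hairpin was that from 20EM to 1DB. The mean log2 ratio was −9.32, −8.34 and −9.21 in the stages before hatch and −10.92, −10.41 and −10.55 in those after it. From 20EM to 1DB it fell by 1.71 (adjusted p = 0.000418, limma, a test added after seeing the data), where 36.1% of all hairpins were called, and this call held with each library left out in turn. From 11EM to 15EM it rose by 0.98 (adjusted p = 0.0277, limma; 8.33% of all hairpins called) and from 15EM to 20EM it fell by 0.87 (adjusted p = 0.0398, limma; 23.6% called), calls that were lost in 5 and 8 of the fits that left out a library. Without 20EM replicate 3, the latter was −0.71 (adjusted p = 0.294, limma).

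In the other hairpins the shift was smaller or rested on fewer counts. For miR-17, where the 5p strand dominates, the ratio changed by −0.47 (adjusted p = 0.00499, exact permutation), as the 3p strand went from 3.48% ± 0.364 of the hairpin before to 4.83% ± 1.09 after hatch. For miR-19a it changed by −1.58 (adjusted p = 0.00206, exact permutation), with the minor 5p strand at 1.61% ± 0.810 and 0.530% ± 0.267, and for miR-19b by −0.93 (adjusted p = 0.0415), a call lost in 8 fits that left out a library. For miR-18a it changed by −0.37 (adjusted p = 0.126, exact permutation). Among hairpins with a mean count of at least 100 in both arms, or in the 12 libraries with the lower share of reads kept, miR-17 and miR-92 were called. The hairpin of miR-106, from the paralogous cluster, went the other way, by +0.93 (adjusted p = 0.000165, exact permutation). Its 3p strand made up 38.8% ± 4.22 of the hairpin before and 25.1% ± 3.60 after hatch.

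**Figure D5:**
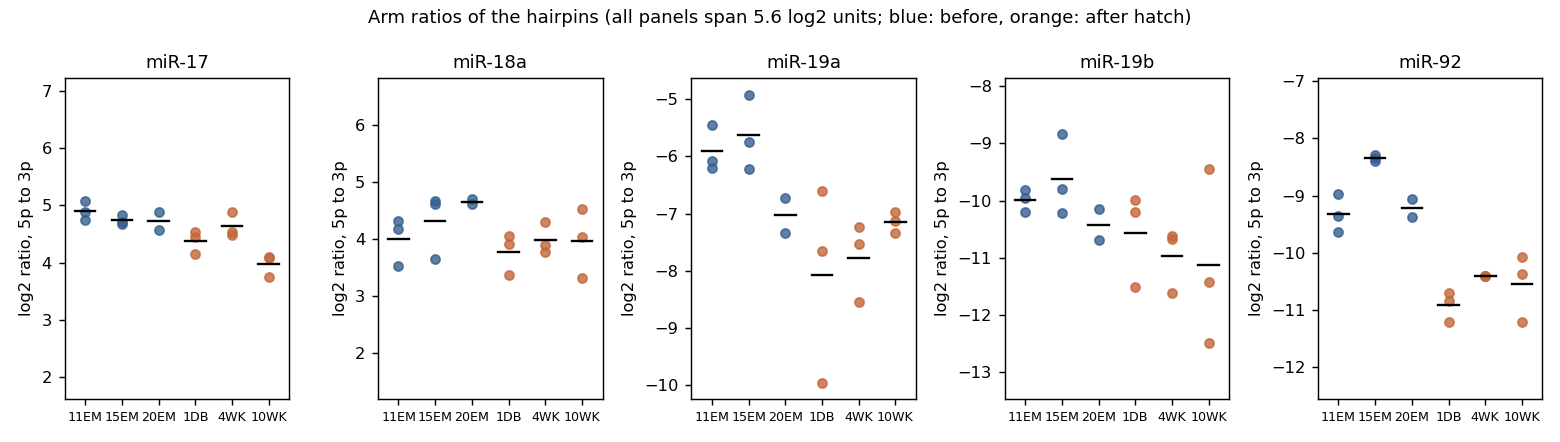
Log2 ratio of the 5p to the 3p strand of each hairpin, by stage, with blue points before hatch, orange points after hatch and black lines for stage means. All libraries after hatch lie below all those before hatch for miR-92, whose stage means go from −9.21 at 20EM to −10.92 at 1DB.

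The 5p strands of the paralogous miR-106 cluster fell further than miR-17-5p. All 6 of its listed strands were called as lower after hatch in edgeR, beside the same 29.4% of all miRNAs, and their median was −2.19. Of these strands, miR-18b-3p and miR-20b-3p rested on few counts after hatch, with means of 3.08 and 0.679 CPM. miR-106-5p was at −1.73 (SE 0.11), miR-20b-5p at −1.50 (SE 0.09) and miR-18b-5p at −2.36 (SE 0.14). The ratio to miR-17-5p changed by −0.76 for miR-106-5p (adjusted p = 0.000543, exact permutation), by −0.51 for miR-20b-5p (adjusted p = 0.000974) and by −1.39 for miR-18b-5p (adjusted p = 0.000203). miR-18a-5p, the near-identical strand to miR-18b-5p, also fell further than miR-17-5p, with a ratio change of −0.73. Its fold change of −1.72 was close to that of miR-106-5p. The strands with the seed AAAGUGC stood at 2249 ± 386 CPM before and 1000.5 ± 136 CPM after hatch in the miR-17 to miR-92 cluster, and at 1631 ± 490.3 and 432 ± 118 CPM in the miR-106 cluster (SD, n = 8 and 9). In the step from 15EM to 20EM, 5 of 6 strands of the paralogous cluster were called as lower, against 9.92% of all miRNAs, but without 20EM replicate 3 only miR-106-3p and miR-18b-5p were, against 4.37%, a fit added after seeing the data.

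miR-32-5p, the relative of miR-92-3p by seed, moved in the opposite direction. It stood at 8.63 CPM ± 1.04 at 11EM, 14.3 ± 2.44 at 15EM and 18.4 ± 0.815 at 20EM. It then stood at 19.4 CPM ± 5.44 at 1DB, 34.9 ± 5.10 at 4WK and 38.4 ± 5.18 at 10WK. Its change from before to after hatch was +1.37 (SE 0.13, adjusted p = 2.13e-07, edgeR), at a level far below that of miR-92-3p throughout.

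Among 15 miRNAs of the let-7, miR-15, miR-16 and miR-34 families, which are known in mammals to restrain growth, 14 could be tested. From before to after hatch, 3 of the 14 were called, against 50.4% of all miRNAs. An adjusted p below 0.05 (edgeR) was found for 12 of them, again without a share over all miRNAs. let-7b and let-7k-5p were higher and miR-15c-5p was lower, and the median was +0.42, beside −0.16 over all miRNAs. From 11EM to 10WK, 6 of the 14 were called, against 58.7% of all miRNAs, 5 as higher and 1 as lower.

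The 5 miRNAs outside the cluster closest to its mean course were miR-107-3p, miR-1467-3p, miR-125b-3p, miR-190a-5p and miR-222a. Likeness was the root mean square difference between centred log2 levels over the 17 libraries, which was 0.118, 0.207, 0.298, 0.321 and 0.342 in that order, beside a median of 0.919 over the 173 miRNAs compared. Among the members themselves, it was 0.134 for miR-20a-5p and 0.145 for miR-17-5p, which lay nearest to the mean. The value was 0.389 for miR-19b-3p, 0.392 for miR-19a-3p, 0.398 for miR-92-3p and 0.481 for miR-18a-5p, above all 5 outside miRNAs. These members are all part of the mean, so some of their likeness to it is built in. miR-92-5p, which was not part of that mean, was at 0.948. miR-107-3p stood at mean levels of 1069, 1156, 939, 482, 521 and 438 CPM from 11EM to 10WK.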

How the data were processed

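Small RNA libraries (Illumina TruSeq) were made from skin RNA, and 17 of 18 were used, since 20EM replicate 2 was not analysed here. The deposited values are raw counts per mature miRNA. Per the methods, the authors trimmed reads with the FASTX-Toolkit (at least 18 nt), removed other noncoding RNA with up to 2 mismatches in CLC Genomic Workbench, and matched the rest to chicken miRNAs of miRBase 21; the mismatches allowed in that match are not given in the sources used here. Unmatched duck variants would be missed, and near-identical strands may share reads.

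Counts were scaled by TMM, and miRNAs with at least 1 CPM in 2 libraries (252 of 353) were tested over 6 stages with edgeR 4.0.16 (R 4.3.3). Levels are CPM of the library total. Ratios within a library had 0.5 count added, required a mean count of 10, and were tested by exact permutation over 24310 splits (NumPy 2.4.6, SciPy 1.17.1) or, by stage step and chosen after seeing the data, by limma 3.58.1. Alternatives were DESeq2 1.42.0, limma, library totals, clean reads (from the study's read statistics), other filters and thresholds, a replicate block, the share of reads kept as a covariate or restriction, and each library left out. Similarity used log2(TMM-scaled CPM + 1) for miRNAs with a mean of at least 10 CPM. Members and lists were chosen with earlier results of these data known: every matching name, both arms, was named, with the miR-106 cluster, seed relatives and the 5 closest miRNAs. Marker lists covered epithelium, muscle, red blood cells, leukocytes, endothelium, mesenchyme and cartilage. Summed muscle markers ranged from 459 to 14085 CPM before and 5233 to 15076 after hatch, endothelial ones from 11290 to 24639 and 19487 to 31093, and cartilage ones from 3448 to 19596 and 8743 to 13086. Scripts were tested on simulated data.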

Additional observations from a re-analysis of the deposited data

How the results depend on the processing

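Scaling by clean reads raised the calls of members to 3 from 15EM to 20EM, 6 from 20EM to 1DB and 1 from 1DB to 4WK. It raised them to 7 from 11EM to 10WK and to 7 from before to after hatch. In the same order, it called 39, 107, 80, 192 and 198 of all 252 miRNAs, beside 35, 72, 56, 148 and 127 with TMM. The rise was thus not particular to the members. The ratios of the summed level rose to 6.34 and, without miR-92-3p, to 5.52. Limma and library totals each gave 5 from before to after hatch, and 129 of all miRNAs were called with library totals. The number that limma called over all miRNAs is not given here. With the adjusted p alone, 7, 6, 1 and 7 members passed from 15EM to 20EM, 20EM to 1DB, 1DB to 4WK and before to after hatch, and with a 4-fold threshold 0, 0, 2 and 1 from 15EM to 20EM, 20EM to 1DB, 11EM to 10WK and before to after hatch. Shares of all miRNAs at these thresholds are not given here. The 12 libraries with the lower share of reads kept held only replicate 3 of 15EM and only replicate 1 of 20EM. Between these, miR-92-5p was at −1.75 (log2, edgeR). With no replicate at either stage, that value cannot decide whether the call of this step holds. In the 12 libraries, 2 arm ratios were called from before to after hatch, as with a mean count of at least 100. Signs turned per clean read for miR-19b-3p from 15EM to 20EM (−0.062) and between 1DB and 4WK for miR-18a-5p (−0.38), miR-19a-3p (−0.23) and miR-19b-3p (−0.48). miR-92-3p from 20EM to 1DB was −0.13 with limma, −0.13 with library totals, −0.79 per clean read, −0.025 without a filter and −0.0061 with the share of reads kept as a covariate. Its ratio to miR-17-5p was −0.24 in the 12 libraries. The causes were not tested. Leaving out each library gave 2 to 4 calls from before to after hatch, 3 to 4 from 20EM to 1DB and 4 to 5 from 11EM to 10WK, arm ratio calls of 0 to 1, 0 to 2 and 1 to 2 over the first 3 steps, and 0 to 1 ratios to miR-17-5p from 11EM to 15EM. miR-19b-3p from 11EM to 10WK then ran from −0.31 to 0.0087, and the ratio of miR-92-3p to miR-17-5p from −0.020 to 0.17. Of 350 fold changes of members under other settings, 310 kept their direction and stayed called or uncalled, as did 575 of 595 with a library left out. These cover all members from 15EM to 20EM, 20EM to 1DB, 11EM to 10WK and before to after hatch. In the other steps they cover only members with an unadjusted p below 0.05. Uncalled values that shrank also counted as kept, as for miR-19a-3p from 15EM to 20EM (log2 0.54, and 0.061 per clean read).

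No pairing of samples by replicate number was seen. Deviations of same-numbered libraries had a mean correlation of −0.0243 over 40 pairs, 5 of them over 0.1. For libraries with different numbers it was 0.0121 over 80 pairs, 19 of them over 0.1. With so few libraries per stage, these values cannot exclude a pairing. With the replicate block, 0 arm ratios were called from 15EM to 20EM (miR-92, adjusted p = 0.0537, limma), and 3 members were still called from before to after hatch. Depth limits miR-92-5p, whose lowest count was 23, and the minor arms of miR-19a and miR-19b.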
